A study of Mus musculus with 6 samples.

Results

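The genes described here make fatty acids and triglycerides in the liver or bring fatty acids into its cells. The list holds 37 genes, chosen by name with earlier results of these data known. A probe set with exactly 1 gene symbol was found for 36 of them. G6pdx, which encodes the first dehydrogenase of the pentose phosphate pathway, had none and was not analysed here. Where a gene had several such probe sets, the one brightest on average across the 6 arrays was used. Mogat1, a monoacylglycerol acyltransferase gene, and Pnpla5, a lipase family gene, stood at the lowest value of the table, 5 on the log2 scale, on all arrays and were left out. That left 34 measured genes among 10343 measured genes in all. The values come from total liver RNA of 3 TLR3-/- mice and 3 TLR3wt mice, 1 oligonucleotide array per mouse. All were untreated, 3 months old and raised in an in-house breeding under specific pathogen-free conditions, and the series design gives C57Bl/6 as their background. The protein missing in the mutants, TLR3, senses double-stranded RNA in endosomes. How the Tlr3 allele was made, the sex of the mice, their feeding state and the hour of collection are not given in the sources used here.

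Liver turns surplus carbohydrate into fat. Citrate leaves the mitochondria and is cleaved to acetyl-CoA, which acetyl-CoA carboxylase and fatty acid synthase build into palmitate with NADPH as the reductant. Elongases and desaturases reshape the chains, and acyltransferases join them to glycerol. Transcription of the pathway in liver is known to be driven by SREBP-1c, the product of Srebf1, under insulin, and by ChREBP, the product of Mlxipl, under glucose. The members were sorted into 6 roles: regulators, supply of substrate and NADPH, fatty acid chain synthesis, elongation and desaturation, glycerolipid assembly, and uptake and storage.

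The promoters of 5 members are shown because these genes had their low values in the same mice, or, for Fasn, because it encodes the central enzyme. They were picked after their values had been seen, and other members with low values in the same mice are not shown. Only windows of these genes that hold the letters CCAAT were kept for display. The windows run from 250 bases before to 50 bases after the annotated start, on the strand of the gene, from RefSeq on GRCm38.p6. Thrsp lies at chr7:97417501-97417800 (minus strand), Acly at chr11:100527951-100528250 (minus strand), Acacb at chr5:114165268-114165567 (plus strand), Pgd at chr4:149166656-149166955 (minus strand) and Fasn at chr11:120824498-120824797 (minus strand). Capitals mark the letters CCAAT, on either strand, the core of the box that the factor NF-Y reads.
Thrsp: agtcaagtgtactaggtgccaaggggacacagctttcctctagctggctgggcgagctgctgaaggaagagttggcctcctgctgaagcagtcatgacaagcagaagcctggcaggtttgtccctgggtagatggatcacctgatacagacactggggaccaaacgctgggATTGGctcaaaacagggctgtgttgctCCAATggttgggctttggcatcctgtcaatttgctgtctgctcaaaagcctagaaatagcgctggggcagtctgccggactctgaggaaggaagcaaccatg
Acly: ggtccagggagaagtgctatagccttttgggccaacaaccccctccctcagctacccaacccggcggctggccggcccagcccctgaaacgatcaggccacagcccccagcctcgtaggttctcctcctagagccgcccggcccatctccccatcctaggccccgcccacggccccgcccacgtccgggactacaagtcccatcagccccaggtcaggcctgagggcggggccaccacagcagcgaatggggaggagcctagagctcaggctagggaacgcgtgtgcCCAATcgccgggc
Acacb: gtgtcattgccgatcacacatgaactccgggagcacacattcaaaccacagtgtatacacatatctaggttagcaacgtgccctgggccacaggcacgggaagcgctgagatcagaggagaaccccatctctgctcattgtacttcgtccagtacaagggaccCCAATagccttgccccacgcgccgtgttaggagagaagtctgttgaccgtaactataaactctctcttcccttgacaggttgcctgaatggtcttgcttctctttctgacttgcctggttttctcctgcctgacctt
Pgd: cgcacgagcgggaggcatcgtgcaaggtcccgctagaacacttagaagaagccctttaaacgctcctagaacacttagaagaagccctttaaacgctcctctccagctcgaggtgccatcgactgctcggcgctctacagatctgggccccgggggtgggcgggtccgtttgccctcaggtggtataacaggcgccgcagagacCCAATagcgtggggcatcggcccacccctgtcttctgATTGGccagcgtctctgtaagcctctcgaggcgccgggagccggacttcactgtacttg
Fasn: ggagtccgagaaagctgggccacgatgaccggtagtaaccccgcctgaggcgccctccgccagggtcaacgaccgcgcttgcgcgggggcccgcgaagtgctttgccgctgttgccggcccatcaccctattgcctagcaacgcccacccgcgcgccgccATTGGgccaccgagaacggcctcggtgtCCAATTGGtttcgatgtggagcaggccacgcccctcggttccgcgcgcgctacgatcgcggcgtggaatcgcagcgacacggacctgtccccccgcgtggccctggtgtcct

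The CCAAT letters were found at 79 and 52 bases before the start in Thrsp, at 87 bases in Acacb, at 46 and 9 bases in Pgd, and at 90, 62 and 59 bases in Fasn, where the last 2 overlap on opposite strands. In Acly they lay after the start. Of 40 windows that belong to 29 members, 22 (55%) held CCAAT on either strand, beside 37.4% of all 32851 windows in the table. The E-box CACGTG was in 5 of the 40 windows (12.5%), those of Mlxipl, Elovl5, Pnpla5, Slc25a1 and Lpin2, beside 7.15% of all windows. The core of the sterol regulatory element, TCACCCCAC, was in 0 of the 40 and in 0.551% of all windows, and with 1 free base (TCACNCCAC) in 1 window, of Mlxipl, and in 1.24% of all. These are letter matches in short windows, and windows of 1 gene are not independent.

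Most members had a lower mean in TLR3-/- livers, yet none passed the test. Of 34 measured genes 26 had a lower and 8 a higher mean, beside 39.1% of all measured genes with a lower mean. Because the list was chosen with earlier results of these data known, such counts only describe it. The median log2 difference, TLR3-/- minus TLR3wt, was -0.15 over the members and 0.03 over all measured genes. Over the members it was -0.32 without TLR3-/- replicate 1 and -0.04 without TLR3-/- replicate 3. With arrays centred on their medians it was -0.18 over the members and 0.002 over all measured genes, and 26 members were lower. The shares of all genes given here thus depend on array scaling, and the share with a lower mean after centring is not given. In limma, with Benjamini-Hochberg adjustment over all 16639 tested probe sets, 0 of the 34 members passed an adjusted p of 0.05 (adjusted p 0.112 to 0.949), beside 0.186% of all tested probe sets and 0.087% of all measured genes. At an unadjusted p under 0.05 there were 9 members, beside 15.7% of all measured genes. Of the 9, 8 were lower (5.56% of all genes) and 1 was higher (10.1% of all genes). The 9 were Thrsp, Pgd, Acacb, Fads2, Lpin2, Cd36, Fabp5 and Plin4 on the lower side and Agpat3 on the higher. With an ordinary pooled-variance test 0 members passed as well. All differences below therefore describe these 6 livers and did not pass the test. In whole liver RNA, fewer cells of a type and less RNA per cell cannot be told apart.

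**Figure D1:**
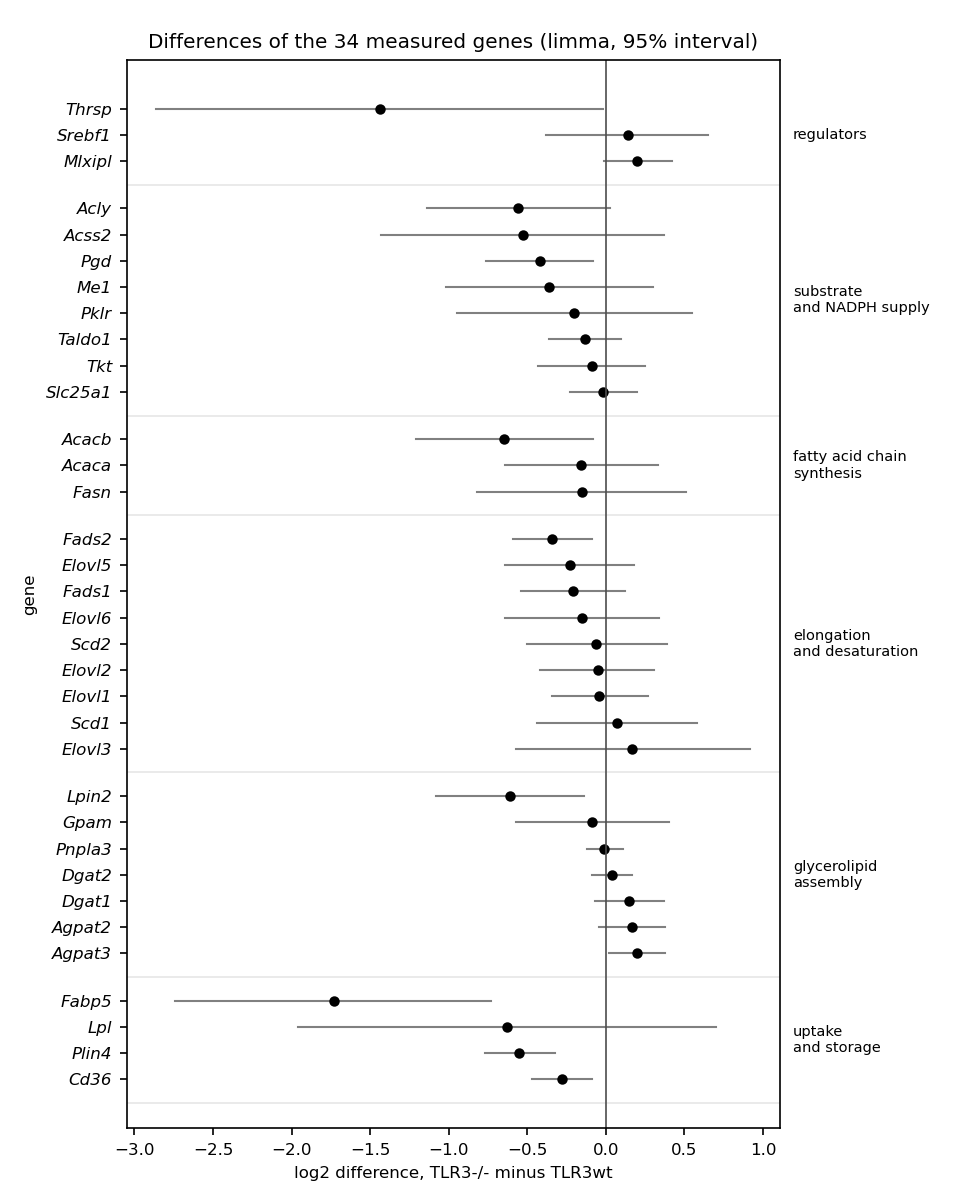
Log2 difference (TLR3-/- minus TLR3wt) of each of the 34 measured genes, grouped by role, with points for the estimate and lines for limma's 95% interval (n = 3 mice per group). Fabp5 (-1.73) and Thrsp (-1.44) lie farthest to the left, and Mlxipl and Agpat3 (0.20 each) farthest to the right.

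The 3 TLR3-/- livers did not behave alike. TLR3-/- replicates 2 and 3 each lay below all 3 TLR3wt livers in 20 of 34 members (58.8%), beside 21.2% and 20.7% of all measured genes. TLR3-/- replicate 1 did so in 7 (20.6%, and 20.7% of all genes) and lay above all 3 TLR3wt livers in 12 (35.3%), a share near the 37.5% of all genes. Those 12 were Srebf1, Mlxipl, Acss2, Slc25a1, Tkt, Acaca, Fasn, Elovl6, Scd1, Gpam, Agpat3 and Dgat2. Replicates 2 and 3 were both below every TLR3wt liver in 17 members, beside 11.9% of all genes. In 11 of those 17, replicate 1 was not: Thrsp, Acly, Acss2, Me1, Taldo1, Acaca, Acacb, Fasn, Elovl5, Elovl6 and Fads1. In the other 6 it was, beside 787 of the 1229 such genes among all measured genes. Within the TLR3-/- group, replicate 1 was the highest of the 3 in 26 of 34 members (76.5%), beside 36.0% of all genes.

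The mean over all 34 members gives the same picture mouse by mouse. Relative to the TLR3wt mean it was 0.01, -0.38 and -0.38 in TLR3-/- replicates 1, 2 and 3, against 0.02, -0.02 and 0.00 in TLR3wt replicates 1, 2 and 3 (log2). TLR3-/- replicate 1 thus stood within the TLR3wt range, and the other TLR3-/- livers stood below it. The group averages were -0.25 ± 0.23 in TLR3-/- and 0.00 ± 0.02 in TLR3wt livers (SD, n = 3 each).

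**Figure D2:**
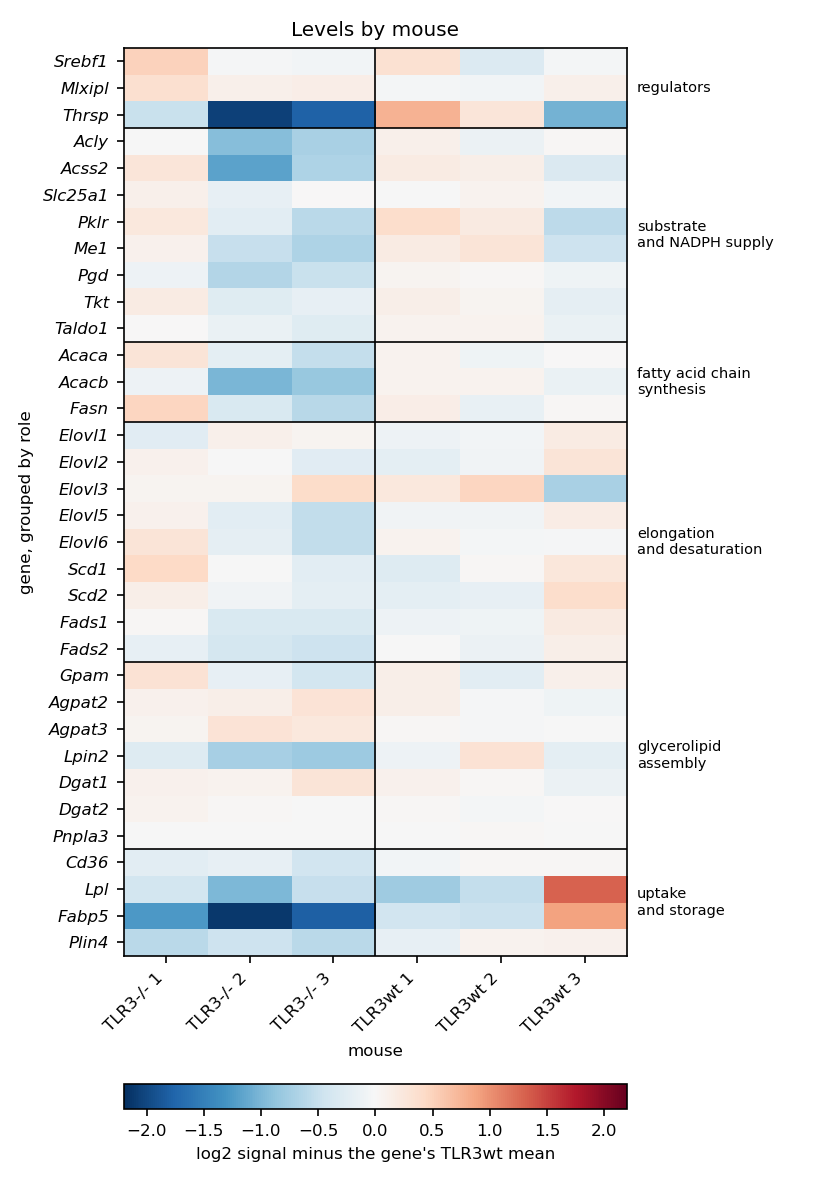
Log2 signal of each measured member (rows, grouped by role) in each mouse (columns), minus the gene's mean in TLR3wt livers. Columns TLR3-/- 2 and 3 are mostly blue across supply and chain synthesis genes, while TLR3-/- 1 is near white or red in most of them, and TLR3wt 3 stands out in Thrsp, Elovl3, Lpl and Fabp5.

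Groups whose values did not overlap were few. All 3 TLR3-/- livers lay below all 3 TLR3wt livers in 6 of 34 members, Pgd, Fads2, Lpin2, Cd36, Fabp5 and Plin4, beside 7.61% of all measured genes. The opposite order was seen in 2, Mlxipl and Agpat3, beside 15.1% of all genes. The lower count was 17 without TLR3-/- replicate 1, beside 11.9% of all measured genes, and 10 without TLR3wt replicate 3. The higher count was 4 without TLR3wt replicate 1, 1 with arrays centred on their medians and 0 after quantile normalisation again. With 1 mouse fewer, the groups separate more easily in any gene. Except for the 11.9%, shares over all genes in these settings are not given here.

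The regulators went different ways. Srebf1 had 8.81, 8.29 and 8.25 in TLR3-/- livers, against 8.65, 8.01 and 8.27 in TLR3wt livers (log2 RMA signal, replicates 1, 2 and 3 in this order, here and below). The groups overlapped, with replicate 1 the highest in each and that of TLR3-/- above all TLR3wt livers (log2 difference 0.14, SE 0.21, 95% interval -0.38 to 0.65). Its sign was the opposite without TLR3-/- replicate 1 (-0.04) and without TLR3wt replicate 2 (-0.01). Mlxipl had 8.93, 8.68 and 8.73 in TLR3-/- livers, against 8.53, 8.52 and 8.68 in TLR3wt livers. All TLR3-/- values were higher, but the nearest pair was apart by less than the rounding of these values (difference 0.20, SE 0.09, limma adjusted p = 0.362).

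Thrsp, a lipogenic regulator gene known to respond to thyroid hormone and carbohydrate, had the lowest difference among the regulators. It had 8.64, 7.08 and 7.35 in TLR3-/- livers, against 9.90, 9.40 and 8.09 in TLR3wt livers. The means were 7.69 ± 0.84 and 9.13 ± 0.94 (SD, n = 3 each), a 2.71-fold lower mean in TLR3-/- livers (log2 difference -1.44, SE 0.58, limma adjusted p = 0.341). The groups overlapped, since TLR3-/- replicate 1 was above TLR3wt replicate 3. The size of its difference exceeded that of 99.8% of measured genes.

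All 8 measured members of substrate and NADPH supply had lower means in TLR3-/- livers, from -0.56 to -0.02, and 0 passed. Of 11 measured supply genes outside the list, 3 had a lower and 8 a higher mean. Acly, which cleaves citrate to acetyl-CoA, had 9.53, 8.59 and 8.82 in TLR3-/- livers, against 9.64, 9.40 and 9.56 in TLR3wt livers (log2 difference -0.56, SE 0.24, limma adjusted p = 0.361). TLR3-/- replicate 1 lay within the tight TLR3wt range and the other TLR3-/- livers well below it. Acss2, which makes acetyl-CoA from acetate, had 9.99, 8.54 and 9.04 in TLR3-/- livers, against 9.91, 9.86 and 9.40 in TLR3wt livers. Here TLR3-/- replicate 1 was the highest of all 6 livers and replicate 2 the lowest (difference -0.53, 95% interval -1.43 to 0.37).

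NADPH-producing enzymes were on the same side. Pgd, of the oxidative pentose phosphate pathway, had 8.08, 7.55 and 7.70 in TLR3-/- livers, against 8.26, 8.23 and 8.10 in TLR3wt livers. The groups did not overlap, by a narrow gap between TLR3-/- replicate 1 and TLR3wt replicate 3 (difference -0.42, SE 0.14, limma adjusted p = 0.269). Me1, malic enzyme, had 10.60, 10.00 and 9.82 in TLR3-/- livers, against 10.68, 10.78 and 10.04 in TLR3wt livers, and TLR3wt replicate 3 fell among the TLR3-/- values. Its second probe set gave nearly the same difference (-0.35 beside -0.36).

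The other supply genes differed less. Pklr, liver pyruvate kinase and a known ChREBP target, had 9.76, 9.30 and 8.94 in TLR3-/- livers, against 9.91, 9.73 and 8.95 in TLR3wt livers. Replicate 3 was the lowest of either group, at almost the same level. Tkt and Taldo1, of the non-oxidative pentose phosphate pathway, differed by -0.09 and -0.13, with overlap. Slc25a1, the mitochondrial citrate exporter, had 9.77, 9.48 and 9.68 in TLR3-/- livers, against 9.65, 9.74 and 9.60 in TLR3wt livers, close together (difference -0.02, 95% interval -0.23 to 0.20). Over the 8 supply genes, TLR3wt replicate 3 was the lowest TLR3wt liver in 7 and TLR3-/- replicate 1 the highest TLR3-/- liver in 8. Their median difference was -0.28, between -0.49 without TLR3-/- replicate 1 and -0.13 without TLR3-/- replicate 3.

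All 3 chain synthesis genes had lower means in TLR3-/- livers with 0 passing, and the difference was widest in Acacb. Without TLR3-/- replicate 3, 1 of the 3 was lower. Acacb encodes the acetyl-CoA carboxylase of the outer mitochondrial membrane, whose malonyl-CoA restrains fatty acid entry into mitochondria. It had 8.05, 7.15 and 7.33 in TLR3-/- livers, against 8.23, 8.23 and 8.02 in TLR3wt livers, a 1.57-fold lower mean (log2 difference -0.65, SE 0.23, limma adjusted p = 0.292). TLR3-/- replicate 1 was just above the lowest TLR3wt liver, and the other TLR3-/- livers were well below.

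Fasn, fatty acid synthase, had 10.22, 9.42 and 9.14 in TLR3-/- livers, against 9.89, 9.58 and 9.77 in TLR3wt livers. The TLR3-/- group held both the highest and the lowest livers, so its SD was 0.56 against 0.16 in TLR3wt, and the difference was -0.15 (95% interval -0.82 to 0.51). Acaca, the cytosolic carboxylase, had 8.99, 8.49 and 8.19 in TLR3-/- livers, against 8.79, 8.62 and 8.73 in TLR3wt livers, in the same order of mice (difference -0.16). A second Acaca probe set gave -0.04. Without TLR3-/- replicate 1 the Fasn and Acaca differences were -0.46 and -0.37, and without TLR3-/- replicate 3 they were 0.08 and 0.03.

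**Figure D3:**
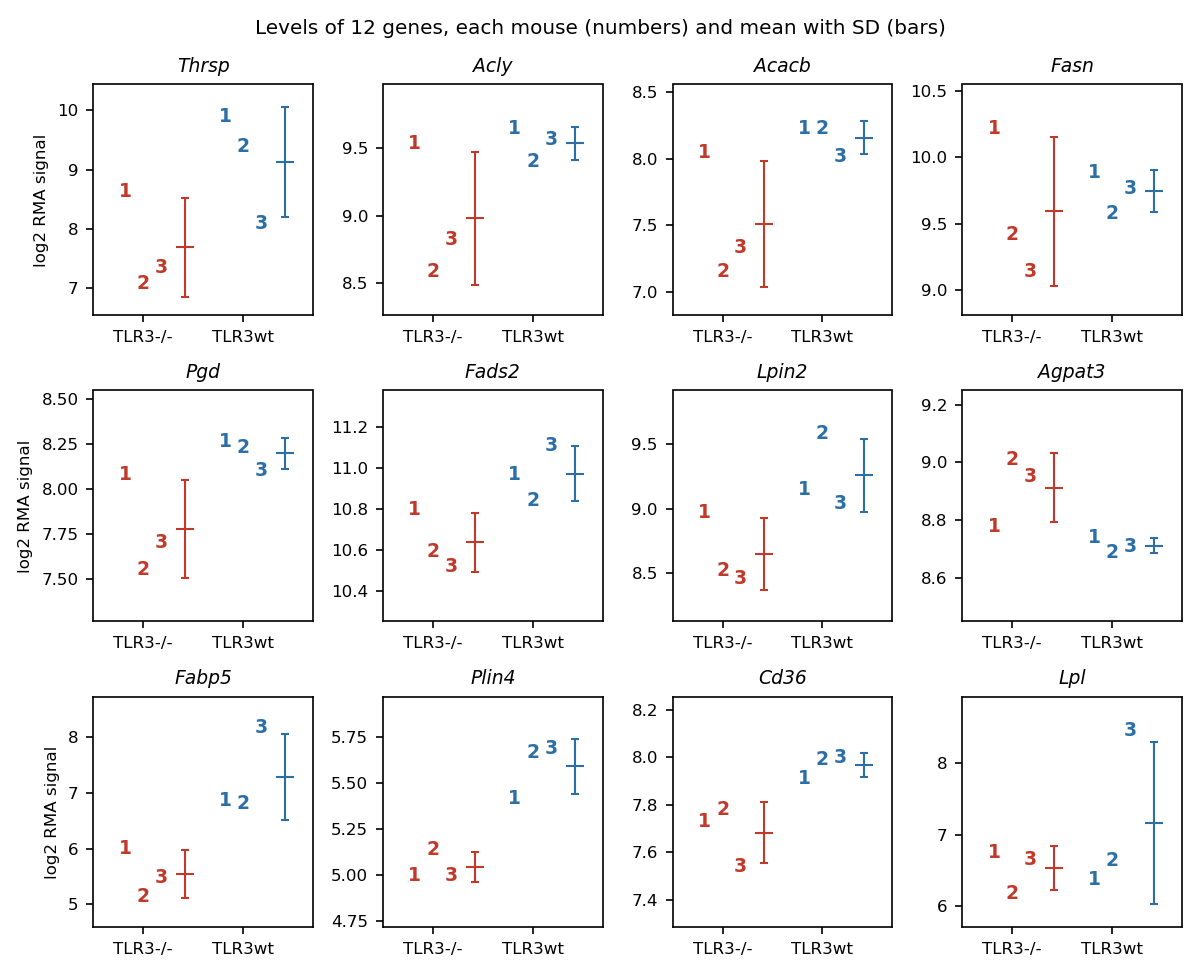
Log2 RMA signal of 12 members in each mouse, numbered by replicate, with group mean and SD (n = 3 each) beside the points; each panel has its own vertical range. TLR3-/- replicate 1 lies near the TLR3wt livers for Acly, Acacb and Fasn, while all 3 TLR3-/- livers lie below for Fabp5, Plin4 and Cd36.

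Elongases and desaturases differed little between the groups. Of 9 genes 7 had a lower mean (5 without TLR3wt replicate 3 and 4 without TLR3-/- replicate 3), with differences from -0.34 to 0.17 and 0 passing. Fads2, a front-end desaturase of polyunsaturated fatty acids, had 10.80, 10.59 and 10.52 in TLR3-/- livers, against 10.97, 10.84 and 11.11 in TLR3wt livers. The groups did not overlap (difference -0.34, SE 0.10, limma adjusted p = 0.232). Its partner Fads1 had 10.72, 10.36 and 10.35 in TLR3-/- livers, against 10.57, 10.60 and 10.89 in TLR3wt livers, and here TLR3-/- replicate 1 was within the TLR3wt range (difference -0.21).

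Scd1, the main stearoyl-CoA desaturase of liver, had 12.56, 12.10 and 11.88 in TLR3-/- livers, against 11.84, 12.14 and 12.37 in TLR3wt livers. The values interleaved (difference 0.07, 95% interval -0.44 to 0.58), and the sign turned without TLR3-/- replicate 1 (-0.12) and without TLR3wt replicate 1 (-0.07). Scd2 was near the floor, from 5 to 5.35 in TLR3-/- livers and from 5 to 5.60 in TLR3wt livers. Elovl6, which extends palmitate, had 8.80, 8.31 and 7.98 in TLR3-/- livers, against 8.59, 8.47 and 8.48 in TLR3wt livers, the order of mice also seen for Fasn.

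Elovl5, an elongase of polyunsaturated chains, had 10.85, 10.51 and 10.21 in TLR3-/- livers, against 10.67, 10.67 and 10.91 in TLR3wt livers, again with only TLR3-/- replicate 1 inside the TLR3wt range (difference -0.23). Elovl2, of the same class, differed by -0.05, and Elovl1, of very long saturated chains, by -0.04. Elovl3, an elongase of saturated and monounsaturated very long chains, had 11.08, 11.08 and 11.43 in TLR3-/- livers, against 11.26, 11.49 and 10.31 in TLR3wt livers. TLR3wt replicate 3 alone was low, and without it the difference was -0.18 in place of 0.17. That mouse was the highest TLR3wt liver in 7 of these 9 genes and the lowest in Elovl3, while over all genes it was the highest in 32.2% and the lowest in 36.3%.

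Glycerolipid assembly held members on both sides, with 3 of 7 measured genes lower and 4 higher and 0 passing. Lpin2, a phosphatidate phosphatase that makes diacylglycerol, had 8.97, 8.52 and 8.46 in TLR3-/- livers, against 9.15, 9.58 and 9.04 in TLR3wt livers. All TLR3-/- values were lower (difference -0.61, a 1.52-fold lower mean, SE 0.19, limma adjusted p = 0.249). Agpat3, an acyltransferase that acts on lysophosphatidate, had 8.78, 9.01 and 8.95 in TLR3-/- livers, against 8.74, 8.69 and 8.71 in TLR3wt livers. All TLR3-/- values were higher, replicate 1 by a small margin (difference 0.20, SE 0.07, limma adjusted p = 0.30).

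The rest of the assembly genes stayed close together. Agpat2, an enzyme of the same step, had 9.76, 9.81 and 9.97 in TLR3-/- livers, against 9.80, 9.64 and 9.58 in TLR3wt livers, with overlap (difference 0.17). Gpam, the mitochondrial acyltransferase of the first step, had 9.91, 9.41 and 9.19 in TLR3-/- livers, against 9.71, 9.35 and 9.70 in TLR3wt livers (difference -0.09). The last step, from diacylglycerol to triglyceride, is made by Dgat1 and Dgat2. Dgat2 had 10.60, 10.55 and 10.51 in TLR3-/- livers, against 10.55, 10.47 and 10.53 in TLR3wt livers, nearly level (difference 0.04, 95% interval -0.09 to 0.17). Dgat1 had 6.65, 6.64 and 6.84 in TLR3-/- livers, against 6.66, 6.59 and 6.43 in TLR3wt livers (difference 0.15, 95% interval -0.07 to 0.37). Pnpla3, a lipid droplet protein gene, was above the floor on 1 TLR3wt array only, at 5.03, and gives no usable difference.

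Uptake and storage members had the lowest median difference of the 6 roles, -0.59, with all 4 means lower in TLR3-/- livers (3 without TLR3wt replicate 3) and 0 passing. Of 17 measured uptake and storage genes outside the list, 6 had a lower and 11 a higher mean. Fabp5, a fatty acid binding protein gene, had 6.01, 5.15 and 5.48 in TLR3-/- livers, against 6.86, 6.81 and 8.17 in TLR3wt livers. The means were 5.55 ± 0.44 and 7.28 ± 0.77 (SD, n = 3 each), 3.32-fold lower in TLR3-/- livers without overlap (log2 difference -1.73, SE 0.41, limma adjusted p = 0.172). Its second probe set gave -1.77. Without TLR3wt replicate 3, the highest liver, the difference was -1.29.

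Plin4, a lipid droplet coat protein gene, had the smallest p of the list. It had 5, 5.14 and 5 in TLR3-/- livers, against 5.42, 5.67 and 5.69 in TLR3wt livers (difference -0.55, SE 0.09, limma adjusted p = 0.112). TLR3-/- replicates 1 and 3 were at the floor, so this difference is understated. Cd36, a fatty acid translocase and scavenger receptor gene, had 7.73, 7.78 and 7.54 in TLR3-/- livers, against 7.91, 7.99 and 8.0 in TLR3wt livers, again without overlap (difference -0.28, SE 0.08, limma adjusted p = 0.212). Lpl, lipoprotein lipase, had 6.76, 6.18 and 6.66 in TLR3-/- livers, against 6.38, 6.64 and 8.46 in TLR3wt livers. TLR3wt replicate 3 alone was high, and the difference of -0.63 became 0.02 without it.

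Markers of macrophages were lower in every TLR3-/- liver than in any TLR3wt liver, as were Fabp5, Plin4 and Cd36 but not Lpl. All 10 macrophage and Kupffer cell markers had non-overlapping lower values in TLR3-/- livers, beside 7.61% of all measured genes, with 0 passing limma (adjusted p 0.0994 to 0.267). Their summed level was between 9.82 and 10.47 in TLR3-/- livers and between 10.79 and 11.18 in TLR3wt livers (log2). Macrophages are known to express Fabp5, Lpl and Cd36, and the part of these cells in the differences was not tested. The mean of the macrophage markers was -0.67, -1.14 and -0.59 in TLR3-/- replicates 1, 2 and 3. In the same order, the mean of the uptake and storage genes was -0.62, -0.94 and -0.83. That of all 34 members, which include these genes, was 0.01, -0.38 and -0.38. How these means relate was not tested.

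Markers of hepatocytes and endothelial cells differed less in their median, -0.01 and -0.02, beside -0.79 for the macrophage markers. Of 10 adipocyte markers 6 stood at the floor on all 6 arrays, among them Adipoq, Lep and Plin1, and 2 had no probe set of 1 symbol. Fabp4 was at the floor in all TLR3-/- livers, against 5.02, 5.27 and 5.62 in TLR3wt livers, and the highest of these was TLR3wt replicate 3, the liver with high Lpl and Fabp5. Car3, which liver also expresses, made up nearly all of the summed adipocyte level (12.54 to 12.74 in TLR3-/- and 12.17 to 12.66 in TLR3wt livers). The 10 hepatocyte markers were all measured, with a summed level of 15.69 to 15.71 in TLR3-/- and 15.69 to 15.73 in TLR3wt livers. The 8 endothelial markers gave 10.46 to 10.73 in TLR3-/- and 10.45 to 10.83 in TLR3wt livers. Such sums weigh the brightest genes most. Hepatocyte markers without overlap were 3 lower (Apoa1, Tat and Hnf4a) and 2 higher (Cyp2e1 and Serpina1c). Among endothelial markers 2 were lower without overlap, Lyve1 (-0.56) and Pecam1 (-0.24), and 0 were higher. Over all measured genes these shares were 7.61% lower and 15.1% higher.

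**Figure D4:**
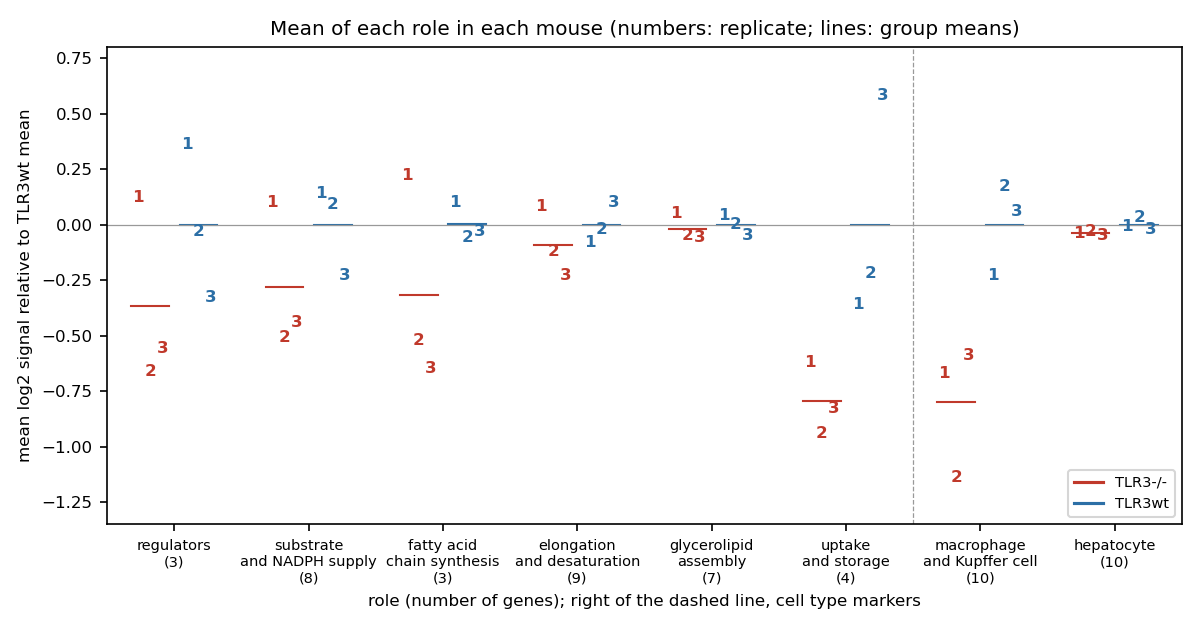
Mean log2 signal of the measured genes of each role in each mouse (numbers give the replicate, lines the group means), relative to the TLR3wt mean; macrophage and hepatocyte markers stand right of the dashed line. TLR3-/- replicate 1 is within or above the TLR3wt range in every gene role except uptake and storage, where the 3 TLR3-/- livers are at -0.62, -0.94 and -0.83.

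Role by role, the mean of the supply genes was 0.10, -0.51 and -0.44 in TLR3-/- livers, against 0.14, 0.09 and -0.23 in TLR3wt livers. For chain synthesis it was 0.22, -0.52 and -0.65, against 0.10, -0.06 and -0.03. In these roles TLR3-/- replicate 1 overlapped the TLR3wt livers or exceeded them, and the other TLR3-/- livers were lower than every TLR3wt liver. The mean of glycerolipid assembly was 0.05, -0.05 and -0.06 in TLR3-/- livers, against 0.04, 0.00 and -0.05 in TLR3wt livers, hardly apart. For uptake and storage the values were -0.62, -0.94 and -0.83 in TLR3-/- livers, against -0.36, -0.22 and 0.58 in TLR3wt livers, with no overlap.

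Other genes of the pathway, from a list of 83, were close to the whole table in the direction of their means, and whether they differ from the members in this was not tested. Of 63 measured genes 24 had a lower and 39 a higher mean in TLR3-/- livers, beside 39.1% of all measured genes with a lower mean. The median difference was 0.03, as over all genes, and 0 passed limma. By role the medians were 0.07 for regulators, 0.12 for supply and 0.03 for chain synthesis. They were 0.0 for elongation and desaturation, -0.07 for glycerolipid assembly and 0.05 for uptake and storage. At an unadjusted p under 0.05 there were 12, 6 lower and 6 higher, beside 15.7% of all genes. Groups did not overlap in 8 lower and 12 higher genes, beside 7.61% and 15.1% of all genes. In each role, the 2 genes with the smallest unadjusted p are named. Among regulators these were Mbtps1 (0.19), the protease that starts SREBP release, and Insig2 (0.23), which holds SREBP in the endoplasmic reticulum, both higher in all TLR3-/- livers than in any TLR3wt liver.

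Lpin1, the gene of another phosphatidate phosphatase and a coactivator, had 7.76, 6.60 and 6.21 in TLR3-/- livers, against 8.98, 9.88 and 7.93 in TLR3wt livers. That is the widest difference of this second list (-2.07, SE 0.59, limma adjusted p = 0.214), without overlap and with replicate 3 the lowest of each group. Gpat3, an acyltransferase of the first step, differed by -0.55 (limma adjusted p = 0.132). In substrate supply, Pgls, the lactonase of the pentose phosphate pathway, was at 0.21 and Rpia, the ribose phosphate isomerase, at -0.28. For chain synthesis they were Acsl4 (-0.31), an acyl-CoA synthetase of arachidonate, and Mcat (0.15), a mitochondrial malonyl transferase, and for desaturation Fads3 (0.32) and Fads6 (0.12). Mcat and Fads6 did not reach an unadjusted p of 0.05 in limma (0.0662 and 0.141). Fads3 (5.01 to 5.47 over the 6 arrays), Rpia (5.11 to 5.56) and Gpat3 (5.17 to 6.01) lay near the floor. G0s2, an inhibitor of adipose triglyceride lipase, had 7.91, 8.29 and 8.08 in TLR3-/- livers, against 7.26, 7.80 and 7.54 in TLR3wt livers, all higher (difference 0.56, limma adjusted p = 0.217). Angptl4, an inhibitor of lipoprotein lipase, differed by -0.79, with overlap.

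The whole series sets the limits of these values. Between 15081 and 15226 probe sets of an array were above the floor, and arrays correlated at 0.984 to 0.991 within groups and 0.980 to 0.988 between groups over the tested probe sets. Tlr3 itself stood at 5 on all 6 arrays, so the array gives no check of the genotype labels. Of 16639 probe sets, 31 were called by limma over the whole table, with 23 higher and 8 lower in TLR3-/- livers. That split was 8 higher and 6 lower with arrays centred on their medians, and 9 of each when every array had to exceed the floor. The number of arrays, 3 per group, limits the precision of every difference given here.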

How the data were processed

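Liver RNA of 6 mice was measured on 1 array each. The deposited values are log2 signals. The submitters' processing notes name RMA and Affymetrix Expression Console as the authors' tools. The lowest value is 5 on each array, 57.2% to 57.6% of an array's values stand there, and the origin of that floor is not stated in the labels. Groups came from the sample titles. Gene symbols came from the array annotation, updated through gene identifiers for 99.6% of probe sets with 1 symbol, and probe sets with several symbols named no gene.

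The comparison used R 4.3.3 and limma 3.58.1, with moderated two-sided tests and Benjamini-Hochberg adjustment. It left out 18918 probe sets that stood at 5 on every array. The procedure was tested on simulated data. All members are accounted for, and other pathway genes were named by the smallest unadjusted p, 2 per role. The members and lists were chosen with earlier results of these data known, so no p was adjusted over a list. Alternatives changed the filter, scaling, probe set choice, variance model and replicates.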

Additional observations from a re-analysis of the deposited data

How the results depend on the processing

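No member passed limma in any of 17 other settings (smallest adjusted p = 0.0875). The median difference of the members kept its sign, between -0.32 and -0.04 in fits without 1 mouse, and lower means were counted in 20 to 27 members there. Non-overlapping members numbered 6 to 17 lower and 2 to 4 higher without 1 mouse, where groups separate more easily in any gene. The higher count was 0 after quantile normalisation again and 1 with centred arrays. Beside the 17, counted without TLR3-/- replicate 1, stood 11.9% of all measured genes. Shares over all genes in the other settings are not given here, so those counts only describe the members. Of 34 members 22 kept the sign of their difference throughout. Elovl1 turned to 0.01 with array weights. In fits without 1 mouse the sign turned for 12 members, whose log2 differences ranged over Srebf1 -0.04 to 0.30, Slc25a1 -0.08 to 0.06, Acaca -0.37 to 0.03, Fasn -0.46 to 0.08, Elovl1 -0.10 to 0.07, Elovl2 -0.16 to 0.09, Elovl3 -0.18 to 0.41, Elovl6 -0.37 to 0.05, Scd1 -0.12 to 0.22, Scd2 -0.16 to 0.14, Gpam -0.29 to 0.07 and Lpl -1.02 to 0.02. Called probe sets numbered 31 as reported, 0 with no filter (2018 at an unadjusted p under 0.05), 18 when every array had to exceed the floor, 9 after quantile normalisation, 14 with centred arrays, 1 with probe sets of 1 symbol, 1 with 1 probe set per gene, 2 with the ordinary test, 30 with probe sets of a gene averaged, 35 with array weights, 35 with trend and robust moderation, and 0 to 13 without 1 mouse. The labels do not say whether mice with the same replicate number were paired. Deviations from the group means correlated at 0.05, -0.01 and -0.06 between same-numbered mice, and at -0.12 to 0.14 between the others. With 3 mice per group these values cannot decide it. With a replicate block 4 probe sets and 0 members passed, and the median difference was -0.15. Plin4, at the floor in TLR3-/- livers only, has an understated difference. Scd2 and Pnpla3 were at the floor on arrays of both groups, so the size and sign of their differences are uncertain.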
